A study of Mus musculus with 18 samples.

Results

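Regulatory T cells (Tregs) of injured bone were compared with Tregs of injured muscle in 6 of the 18 bulk RNA-seq libraries of a series on tissue injury, 3 from each tissue. All came from male mice of the Foxp3(DTR/GFP) strain, aged 10 weeks, in which cells that express Foxp3 also make GFP and a diphtheria toxin receptor. The cells were sorted by flow cytometry on day 7 after a calvarial defect, a hole made in the skull, or after a volumetric loss of quadriceps muscle. Each mouse had 1 injury, and each library pooled 3 mice, so that 3 pools were compared with 3 pools. The spread behind the p-values below was estimated over all 15 libraries of the count table used, skin and spleen included. The 6 libraries were chosen by the tissue in their labels and column names, within 1 count table of bone, muscle, skin and spleen. That table names its columns in a pair of styles, Endo and Tregs, and all 6 have the Tregs style. Bone libraries are called bone 1, bone b and bone c, since the columns of b and c could be tied to bone but to no replicate number, and muscle libraries muscle 1, 2 and 3. Tregs of uninjured spleens, replicates 4 to 6, which share the naming style, are quoted as levels only. Uninjured bone and uninjured muscle were not analysed here, so that tissue and kind of injury cannot be told apart.

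Tregs are CD4 T cells that depend on the transcription factor Foxp3 and restrain other immune cells. In lymphoid organs many Tregs are resting, recirculate through blood and lymph and express genes shared with naive T cells, such as Tcf7, Lef1 and Bach2. Tregs that enter injured tissue switch on another set of genes, among them the IL-33 receptor Il1rl1, the growth factor Areg, the chemokine receptor Ccr8 and the inhibitory receptor Ctla4, and in mouse muscle they are known to aid regeneration.

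Total counts ran from 11588253 to 22635760 in bone and from 11582403 to 13358526 in muscle. Levels are given as CPM after TMM scaling. Differences are log2 fold changes of bone minus muscle. They were tested with the quasi-likelihood F test of edgeR over 15617 genes, and p-values were adjusted by the Benjamini-Hochberg method. The standard errors given with them were derived from the fold change and the F statistic of that test, not estimated separately. At a false discovery rate (FDR) of 0.05, 759 genes passed, 4.86% of those tested. Of these, 402 (2.57%) were higher and 357 (2.29%) lower in bone, while the median log2 fold change of all genes was -0.00195. Bone and muscle libraries did not overlap for 3706 genes (23.7%). The first principal component, with 36.4% of the variance, separated bone from muscle, and the second, with 21.6%, set muscle 1 apart. On the first, bone ran from -51.1 to -13.82 and muscle from 20.98 to 38.2. Correlations of log levels did not follow tissue throughout. Bone 1 correlated at 0.9763 with bone b, but better with muscle 3 (0.972) and muscle 2 (0.9682) than with bone c (0.9657). Fewer genes passed without bone b (323), bone c (256), muscle 1 (464) or muscle 2 (431). The comparison was repeated under 16 alternatives, among them each of the 6 libraries left out and a fit with no term for the naming style.

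The label of the cells held in both groups. Foxp3 stood at 767, 729 and 752 CPM in bone, against 579, 793 and 759 CPM in muscle, and its groups overlapped (log2 fold change 0.08 ± 0.14, adjusted p = 0.813). Ikzf2, which encodes the Treg transcription factor Helios, stood at 1729.8, 1602 and 1662 CPM in bone, against 1589, 1718 and 1648 CPM in muscle (log2 fold change 0.01 ± 0.14, adjusted p = 0.981). Il2ra, the alpha chain of the IL-2 receptor, stood at 1167, 959 and 919 CPM in bone, against 822, 1413 and 1043 CPM in muscle (log2 fold change -0.11 ± 0.16, adjusted p = 0.773). Of 10 general T cell genes such as Cd3e, Cd4 and Lck, 0 passed, their median log2 fold change was -0.17, and their summed level was 3375 to 3687 CPM in bone and 3393 to 4344 CPM in muscle. At unadjusted p under 0.05, 1 of the 10 passed, and no more than 1 passed in any alternative, DESeq2 included.

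**Figure D1:**
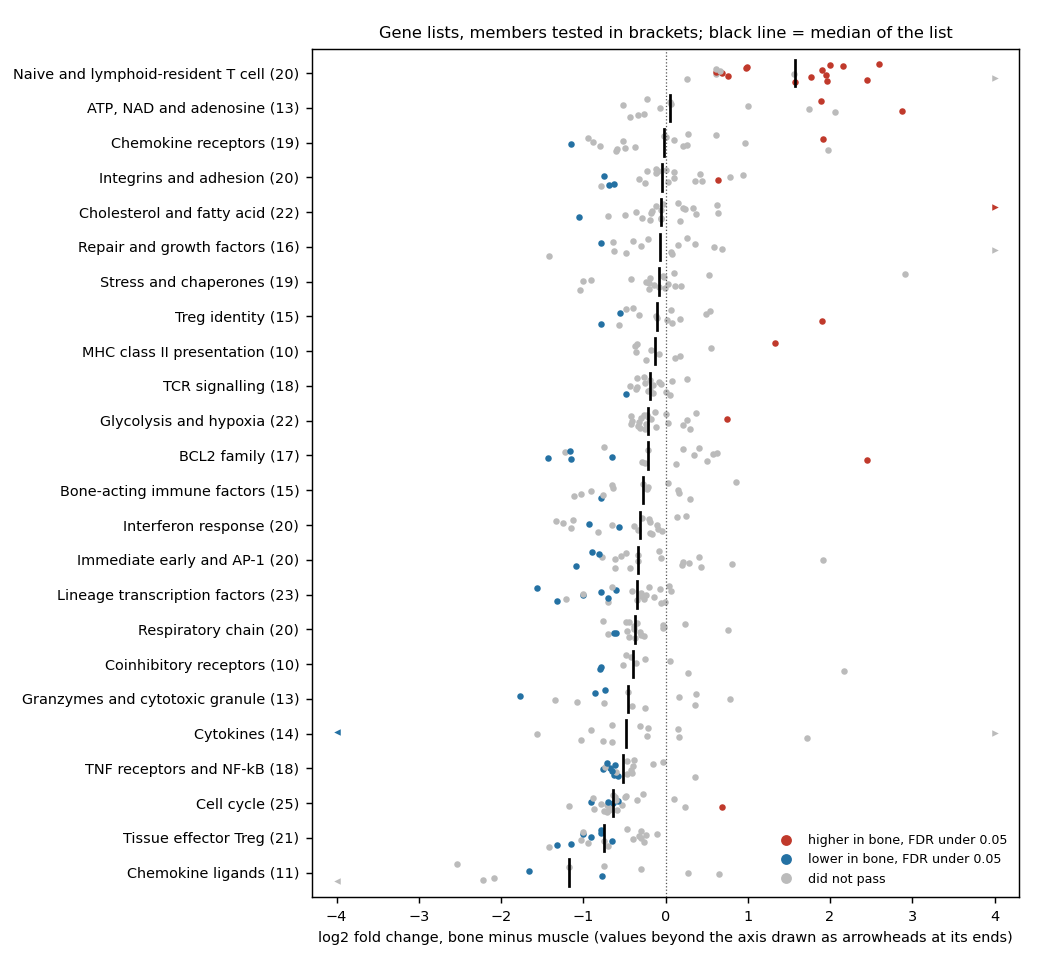
Log2 fold changes (horizontal axis, bone minus muscle) of the tested members of 24 gene lists; red points were higher in bone, blue points lower in bone, grey points did not pass, and black lines are list medians. The naive T cell list has the highest median, 1.57 with 14 of 20 members higher (2.57% of all genes), and the chemokine ligand list the lowest, -1.18.

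Most genes of naive and lymphoid-resident T cells were higher in bone. Of 20 such genes 14 were higher and 0 lower (background 2.57% of genes higher), all 20 fold changes were above 0 and their median log2 fold change was 1.57. Bone and muscle libraries did not overlap for 18 of the 20, against 23.7% of all genes. The list was chosen with its differences between these tissues and spleen known. Between 12 and 18 members were higher in every alternative analysis tried.

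Among the transcription factors, Tcf7, which maintains resting and memory-like T cells, stood at 145, 198 and 196 CPM in bone, against 43.7, 34.2 and 57.1 CPM in muscle, so that every bone library lay above every muscle library. It was 3.99-fold higher in bone (2.00 ± 0.17, adjusted p = 3.43e-07). Bach2, a repressor that keeps Tregs in a resting state, stood at 51.3, 48.99 and 50.9 CPM in bone, against 11.7, 8.43 and 18.6 CPM in muscle (log2 fold change 1.97 ± 0.29, adjusted p = 0.000971). Satb1, a chromatin organiser of developing T cells, stood at 203, 226 and 193 CPM in bone, against 118, 110.3 and 86.4 CPM in muscle (log2 fold change 0.98 ± 0.16, adjusted p = 0.0011). These 3 genes and Id3, an inhibitor of E proteins at 11.7, 10.4 and 29.5 CPM in bone, against 6.31, 3.19 and 3.73 CPM in muscle (log2 fold change 1.95 ± 0.37, adjusted p = 0.00524), kept their call in all 16 alternatives. In Id3 the bone values were spread widely, with bone c at 29.5 CPM.

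Smaller differences were found in Lef1 (0.61 ± 0.14, adjusted p = 0.0148), a partner of Tcf7, in Foxp1 (0.76 ± 0.14, adjusted p = 0.0028), a factor of T cell quiescence, and in Klf2 (0.68 ± 0.19, adjusted p = 0.0369), which drives genes of lymphocyte recirculation. Lef1 lost its call without bone c, muscle 1 or muscle 2 (adjusted p up to 0.095), Foxp1 without the naming style term (adjusted p = 0.0515) and Klf2 without the naming style term, bone 1, bone b, bone c, muscle 1 or muscle 2 (adjusted p up to 0.173).

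Of the homing and egress genes, the egress receptor S1pr1 stood at 390.4, 362 and 385 CPM in bone, against 185, 233 and 324 CPM in muscle and did not pass (log2 fold change 0.62 ± 0.20, adjusted p = 0.0719). Ccr7, a lymph node homing receptor, stood at 67.9, 70.9 and 78.1 CPM in bone, against 102, 28.8 and 50.3 CPM in muscle, and the groups overlapped (log2 fold change 0.26 ± 0.44, adjusted p = 0.802). Muscle 1 was the highest and muscle 2 the lowest of the 6 libraries for Ccr7. Il7r, the IL-7 receptor of resting T cells, stood at 794, 654 and 819 CPM in bone, against 385, 549.8 and 549.8 CPM in muscle (log2 fold change 0.61 ± 0.19, adjusted p = 0.0673). The groups of S1pr1 and of Il7r did not overlap. Both passed with DESeq2, with limma-voom, with no filter on low counts and in the fit to 6 libraries. S1pr1 also passed in the fit to 9 libraries and without muscle 3, and Il7r with upper-quartile scaling.

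The survival gene Bcl2 was 5.44-fold higher in bone (2.44 ± 0.20, adjusted p = 3.43e-07). It lies at chr1:106538178-106714274 (GRCm38) and stood at 73.4, 83.2 and 101 CPM in bone, against 18.2, 12.8 and 16.2 CPM in muscle. The lowest bone value was thus well above the highest muscle value. Further members with clear separation were Actn1, an actin crosslinker (1.57 ± 0.18, adjusted p = 1.51e-05), Dtx1, a Notch pathway ubiquitin ligase (1.77 ± 0.23, adjusted p = 0.000165), and Nsg2 (1.90 ± 0.20, adjusted p = 9.4e-06). Treml2 (2.59 ± 0.41, adjusted p = 0.00236) and the ganglioside synthase St8sia1 (2.16 ± 0.38, adjusted p = 0.00318) were also higher. All 5 of these kept their call in all 16 alternatives.

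Spleen gave the scale of these levels. Tcf7 stood at 496, 448 and 475 CPM in spleen and Bcl2 at 276, 209 and 263 CPM. For 17 of the 20 genes every bone library lay below every spleen library, and for 19 of 20 every muscle library did. Il7r stood at 357, 303 and 189 CPM in spleen, below all bone and all muscle libraries.

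**Figure D2:**
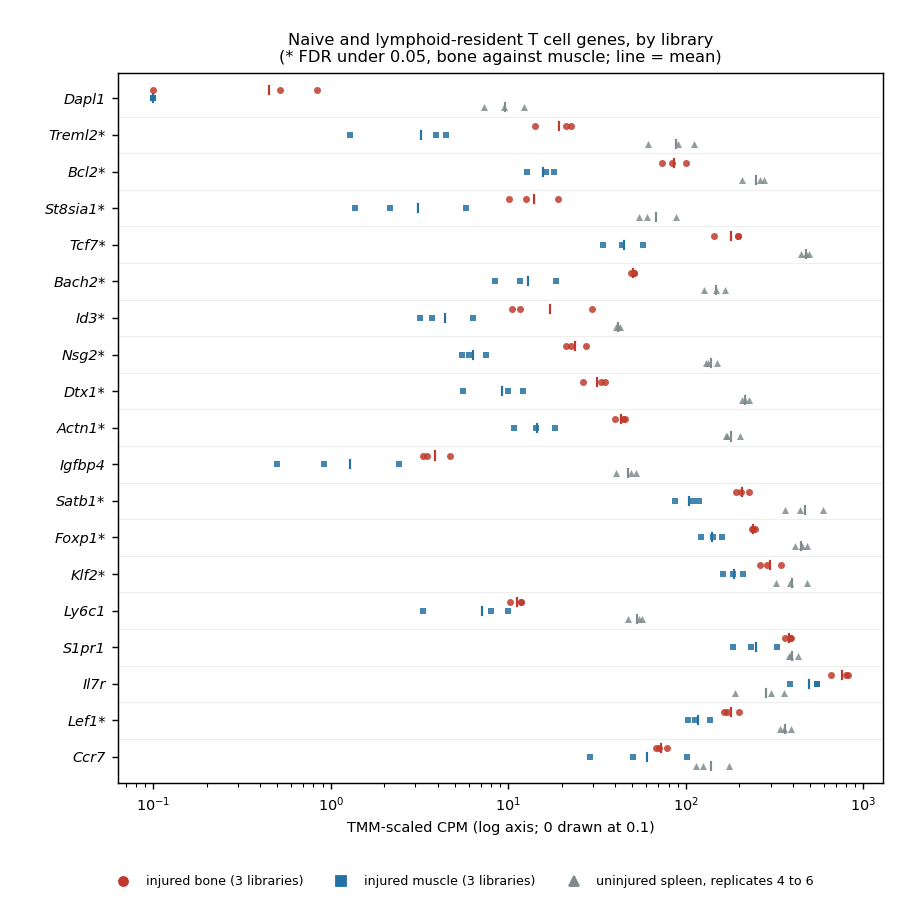
Level of genes of the naive and lymphoid-resident T cell list in every library, in TMM-scaled CPM on a log axis; circles are bone, squares muscle and triangles spleen replicates 4 to 6, short lines are group means and asterisks mark FDR under 0.05 for bone against muscle. With 1 member of the list not drawn, bone points lie right of muscle points for all but 2 of the genes drawn. Over all genes, bone and muscle libraries do not overlap for 23.7%.

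Genes with the same separation were found outside that list and were chosen after their values were seen. Klf3, a transcriptional repressor, stood at 238, 246 and 278 CPM in bone, against 65.1, 80.03 and 82.5 CPM in muscle (log2 fold change 1.74 ± 0.16, adjusted p = 8.62e-07). Aff3, a nuclear gene of lymphoid cells, stood at 74.8, 110.4 and 108 CPM in bone, against 21.2, 15.3 and 30.3 CPM in muscle (log2 fold change 2.13 ± 0.21, adjusted p = 4.92e-06). Igf1r, the receptor for insulin-like growth factors, stood at 36.6, 55.4 and 73.6 CPM in bone, against 12.04, 17.01 and 16.2 CPM in muscle (log2 fold change 1.87 ± 0.21, adjusted p = 1.36e-05). All 3 kept their call in all 16 alternatives. Gpr83, an orphan receptor typical of Tregs in lymphoid organs, stood at 15.2, 12.7 and 23.8 CPM in bone, against 2.99, 6.45 and 4.15 CPM in muscle (log2 fold change 1.91 ± 0.27, adjusted p = 0.000308). In spleen it stood at 108, 108 and 133 CPM. It was the 1 gene of the 15 in the Treg identity list that was higher in bone. Itga6, an integrin subunit that binds laminin, was the 1 integrin or adhesion gene of 20 that was higher (0.64 ± 0.13, adjusted p = 0.00471).

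Genes of extracellular ATP, NAD and adenosine did not move as a list, and 2 of them passed. Of 13 tested, 2 were higher and 0 lower (background 2.57% of genes higher). Fold changes were above 0 for 7 of the 13, with a median log2 fold change of 0.05. P2rx7, the ATP-gated channel whose opening can kill resting Tregs, stood at 75.5, 101 and 99.1 CPM in bone, against 16.7, 27.3 and 30.3 CPM in muscle (log2 fold change 1.89 ± 0.37, adjusted p = 0.0141). Art2b, an enzyme that modifies P2rx7 using NAD, stood at 19.9, 24.8 and 27.4 CPM in bone, against 2.16, 3.72 and 3.90 CPM in muscle (log2 fold change 2.88 ± 0.28, adjusted p = 1.8e-06). Reads of Art2b may be shared with its near-identical neighbour Art2a, so its level is uncertain. P2rx7 lost its call without bone b or bone c (adjusted p up to 0.0595).

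Markers of B cells moved with the naive genes. Of 10 B cell markers tested 5 were higher and 0 lower in bone (background 2.57% of genes higher). The summed level of all 12 was 60.1, 81.7 and 101 CPM in bone, against 10.96, 17.8 and 15.8 CPM in muscle and 95.4 to 139 CPM in spleen. Pax5, the factor that defines the B lineage, stood at 10.8, 18.99 and 26.5 CPM in bone, against 0.664, 0 and 0 CPM in muscle (log2 fold change 6.37 ± 1.07, adjusted p = 0.00571). Ms4a1, which encodes CD20, stood at 2.92, 4.89 and 8.67 CPM in bone, against 0 CPM in all 3 muscle libraries, with 305 counts over the bone libraries and 0 over the muscle libraries. With a floor of 3 counts over the muscle libraries it was at least 61.1-fold higher in bone, a bound that covers counting error only. Cd79a, a chain of the B cell receptor, had 380 counts in bone and 1 in muscle, a ratio of 228 with an exact 95% interval of 40.7 to 9040 that covers counting error only. The immunoglobulin gene Ighd, chosen after its values were seen, stood at 21.2, 9.85 and 15.5 CPM in bone, against 1.49, 2.13 and 2.65 CPM in muscle (log2 fold change 2.88 ± 0.45, adjusted p = 0.000704). Ighm, chosen in the same way, stood at 458, 494 and 484 CPM in bone, against 237, 301 and 317 CPM in muscle (log2 fold change 0.75 ± 0.16, adjusted p = 0.00955). The part of B cell RNA in the naive gene result was not tested. In bulk samples, fewer cells of a type and less RNA per cell cannot be told apart.

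Rag1, the recombinase that assembles antigen receptor genes in precursors of B and T cells, was the gene with the highest fold change under the naming rule. It lies at chr2:101638282-101649501 and stood at 8.30, 7.19 and 11.1 CPM in bone, against 0 CPM in all 3 muscle libraries. Its 523 bone counts against 0 muscle counts give a fold of at least 105 with the same floor. It was also at 0 CPM in spleen, where Pax5 stood at 22.00, 30.8 and 27.5 CPM. Further genes of B cell precursors gave mixed values. Igll1 had no count in any of the 6 libraries, and Vpreb1 stood at 0.751, 0 and 0 CPM in bone, against 0.332, 0 and 0 CPM in muscle. Rag2, the partner of Rag1, stood at 0.167, 0.358 and 0 CPM in bone, against 0.166, 0 and 0 CPM in muscle. Vpreb3 stood at 0.167, 1.79 and 0.387 CPM in bone, against 0 CPM in all 3 muscle libraries, with 54 counts in bone and 0 in muscle, at least 10.8-fold with the same floor, but it did not pass (adjusted p = 0.101). Cd93, which early B cells share with other cell types, stood at 3.96, 7.63 and 2.71 CPM in bone, against 2.16, 0.0759 and 0 CPM in muscle and did not pass (log2 fold change 2.67 ± 1.11, adjusted p = 0.174). Dntt, the polymerase that adds bases at receptor joints, stood at 3.92, 4.89 and 0.464 CPM in bone, against 0.913, 2.20 and 1.58 CPM in muscle (log2 fold change 0.99 ± 1.07, adjusted p = 0.666). Igll1, Vpreb1 and Vpreb3 belong to the B cell marker list, Rag2, Cd93 and Dntt to no list, and all 6 were singled out after values were seen.

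Ebf1 and Pou2af1, both regulators of B cell genes, were higher as well, Ebf1 at 7.85, 7.15 and 6.73 CPM in bone, against 1.49, 0.304 and 0.580 CPM in muscle and Pou2af1 at 11.5, 7.59 and 11.8 CPM in bone, against 0, 0.911 and 1.99 CPM in muscle. Their log2 fold changes were 3.18 ± 0.72 (adjusted p = 0.0122) and 3.40 ± 0.66 (adjusted p = 0.00502). Ly6d, found on B cell precursors and plasmacytoid dendritic cells, stood at 11.1, 9.42 and 7.97 CPM in bone, against 0.747, 0.228 and 0.995 CPM in muscle (log2 fold change 3.85 ± 0.66, adjusted p = 0.00152). Cd79b, the other chain of the B cell receptor, was higher too (1.06 ± 0.30, adjusted p = 0.0445). Ebf1 lost its call without muscle 2 (adjusted p = 0.0596) and Cd79b without the naming style term, bone 1, bone b, bone c, muscle 1 or muscle 2 or in the fit to 6 libraries or in the fit to 9 libraries (adjusted p up to 0.159).

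A part of the genes of tissue effector Tregs was lower in bone. Of 21 such genes 7 were lower and 0 higher (background 2.29% of genes lower), all 21 fold changes were below 0 and the median was -0.75. In spleen most stood far lower: for 19 of the 21 genes every bone library, and for 20 every muscle library, lay above every spleen library. The count of lower genes was 3 without bone c, 4 without bone b and 4 without muscle 2.

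Bhlhe40, a transcription factor of activated T cells, stood at 364, 312 and 332 CPM in bone, against 721, 1003 and 799 CPM in muscle and was 2.50-fold lower in bone (-1.32 ± 0.19, adjusted p = 0.00026). Ccr8, a chemokine receptor of Tregs in barrier tissues and tumours, stood at 106, 69.5 and 54.01 CPM in bone, against 156, 205 and 149.9 CPM in muscle and was 2.22-fold lower in bone (-1.15 ± 0.18, adjusted p = 0.000591). Ctla4, counted in the Treg identity list and not in this one, strips costimulatory ligands from antigen-presenting cells and stood at 1054, 789 and 770.0 CPM in bone, against 1611, 1617 and 1261 CPM in muscle (log2 fold change -0.78 ± 0.16, adjusted p = 0.00551). No bone library reached the lowest muscle library for any of these 3 genes. Nfil3, a transcription factor of effector Tregs, stood at 74.7, 61.3 and 47.5 CPM in bone, against 121, 135 and 114 CPM in muscle (log2 fold change -1.01 ± 0.17, adjusted p = 0.00122). Rora, which marks tissue Tregs, stood at 659, 615 and 559 CPM in bone, against 916, 1149 and 1086 CPM in muscle (log2 fold change -0.78 ± 0.16, adjusted p = 0.00591). Klrg1, a receptor of terminally differentiated Tregs, stood at 327, 254 and 198 CPM in bone, against 367, 677 and 415 CPM in muscle (log2 fold change -0.90 ± 0.20, adjusted p = 0.0127).

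The costimulator Icos (-0.65 ± 0.15, adjusted p = 0.0169) and Penk, which encodes the opioid precursor proenkephalin (-0.79 ± 0.19, adjusted p = 0.0201), were the other members of the effector list that were lower. Bhlhe40 lost its call without the naming style term (adjusted p = 0.177), Ctla4 without bone c (adjusted p = 0.0537) and Nfil3 without the naming style term (adjusted p = 0.219). Rora lost its call without bone c (adjusted p = 0.0528), Klrg1 without the naming style term, bone b, bone c or muscle 2 or in the fit to 6 libraries (adjusted p up to 0.155) and Icos without bone b, bone c or muscle 2 (adjusted p up to 0.11). Penk lost its call without bone b, bone c, muscle 1 or muscle 2 (adjusted p up to 0.113). Ccr8 kept its call in all 16.

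The best-known genes of tissue repair by Tregs did not pass. Areg stood at 212, 155 and 119.6 CPM in bone, against 259, 653 and 391 CPM in muscle, with no overlap between the groups but a spread among muscle libraries in which muscle 2 was the highest (log2 fold change -1.42 ± 0.41, adjusted p = 0.0728). Il10 did not overlap between the groups either, at 70.1, 70.8 and 56.6 CPM in bone, against 116, 195 and 91.4 CPM in muscle (log2 fold change -1.02 ± 0.34, adjusted p = 0.101). Il1rl1 stood at 739, 604 and 614 CPM in bone, against 710.1, 1057 and 799 CPM in muscle and its groups overlapped (log2 fold change -0.39 ± 0.17, adjusted p = 0.184). Areg passed with DESeq2, with limma-voom or with no filter on low counts, and Il10 under these 3 and in fits to 6 or 9 libraries. Overlapping groups were also found for Gata3 (log2 fold change -0.26 ± 0.15, adjusted p = 0.342), Gzmb (log2 fold change -0.75 ± 0.44, adjusted p = 0.374), Lmna (log2 fold change -0.33 ± 0.31, adjusted p = 0.604) and Ccr2 (log2 fold change -0.60 ± 0.21, adjusted p = 0.106). Pparg, the regulator of Tregs in fat, stood at 19.4, 18.1 and 9.75 CPM in bone, against 21.8, 47.9 and 25.9 CPM in muscle (log2 fold change -1.01 ± 0.35, adjusted p = 0.0941). Cxcr6 stood at 92.1, 85.03 and 69.3 CPM in bone, against 126, 248 and 99.7 CPM in muscle (log2 fold change -0.94 ± 0.32, adjusted p = 0.118). With no filter on low counts, Gzmb, Ccr2, Pparg and Cxcr6 passed.

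**Figure D3:**
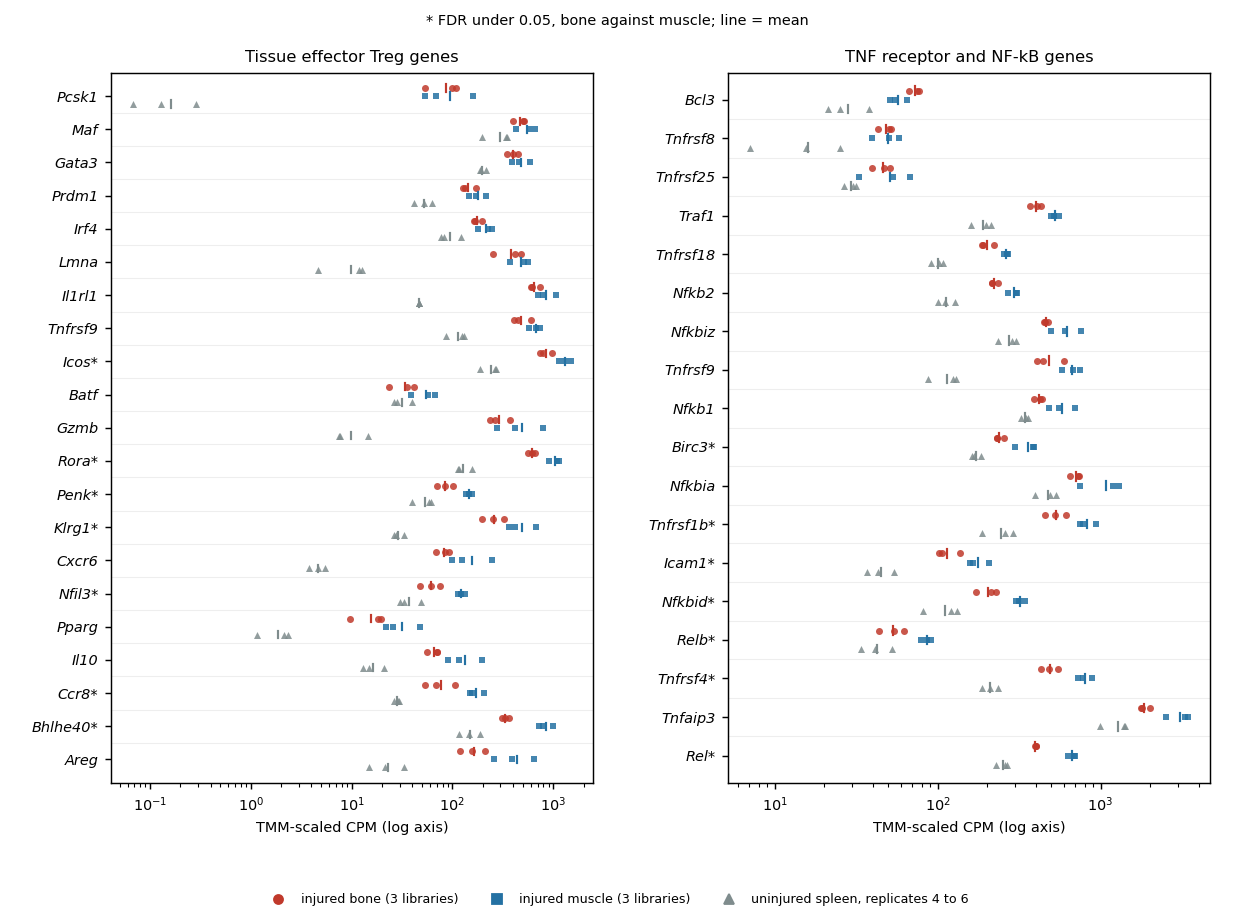
Level of each tested gene of the tissue effector Treg list (left) and of the TNF receptor and NF-kB list (right) in every library, in TMM-scaled CPM on a log axis; circles are bone, squares muscle and triangles spleen replicates 4 to 6, short lines are group means and asterisks mark FDR under 0.05 for bone against muscle. Bone points lie left of muscle points for 11 of the 21 effector genes and 14 of the 18 NF-kB genes without overlap. Over all genes, bone and muscle libraries do not overlap, in either direction, for 23.7%.

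Several receptors of the TNF family and genes of the NF-kB pathway behind them were lower in bone. TNF family costimulators activate NF-kB factors in T cells, and these in turn induce their own inhibitors. Of 18 genes 7 were lower and 0 higher (background 2.29% of genes lower), 17 of 18 fold changes were below 0 and the median was -0.52. Among the receptors, Tnfrsf4 (OX40) stood at 548, 431 and 486 CPM in bone, against 884, 783 and 728 CPM in muscle (log2 fold change -0.71 ± 0.15, adjusted p = 0.00681). Tnfrsf1b, the TNF receptor that expands Tregs, was lower too (-0.62 ± 0.15, adjusted p = 0.0238). Tnfrsf18 (GITR), whose groups did not overlap, and Tnfrsf9 (4-1BB), whose groups overlapped, did not pass (log2 fold change -0.40 ± 0.15, adjusted p = 0.12 and log2 fold change -0.47 ± 0.16, adjusted p = 0.103). Without bone 1 Tnfrsf9 passed.

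Among the NF-kB subunits, Rel, which Tregs need for their development and function, stood at 399, 394 and 402 CPM in bone, against 691, 695 and 631 CPM in muscle, so that the 3 bone libraries agreed closely and lay below all muscle libraries. It was 1.69-fold lower in bone (-0.76 ± 0.13, adjusted p = 0.00111) and kept its call in all 16 alternatives. Relb was lower as well (-0.67 ± 0.17, adjusted p = 0.0252). Of the inhibitors and targets, Nfkbid (-0.65 ± 0.17, adjusted p = 0.033), Birc3 (-0.58 ± 0.13, adjusted p = 0.0122) and the adhesion molecule Icam1 (-0.62 ± 0.17, adjusted p = 0.0345) passed. Nfkbia (log2 fold change -0.61 ± 0.18, adjusted p = 0.0577) and Tnfaip3 (log2 fold change -0.73 ± 0.31, adjusted p = 0.2) did not. With no filter on low counts or in the fit to 9 libraries both passed. Nfkbia also passed with DESeq2, with limma-voom and without muscle 1, and Tnfaip3 in the fit to 6 libraries. The count of lower genes was 1 without bone b, 2 without bone c, 3 without muscle 2 and 3 without the term for naming style. Tnfrsf4 lost its call without bone b (adjusted p = 0.0602), Tnfrsf1b without the naming style term, bone b, bone c or muscle 2 (adjusted p up to 0.143) and Relb without bone b, bone c, muscle 1 or muscle 3 (adjusted p up to 0.143). Nfkbid lost its call without the naming style term, bone b, bone c, muscle 1, muscle 2 or muscle 3 (adjusted p up to 0.161), Birc3 without the naming style term, bone b, bone c or muscle 2 (adjusted p up to 0.0723) and Icam1 without the naming style term, bone b, bone c, muscle 2 or muscle 3 (adjusted p up to 0.152).

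Immediate early genes, which T cell receptor signals switch on, gave 3 lower and 0 higher of 20 (background 2.29% of genes lower), with a median of -0.34. Dusp4, a phosphatase that limits MAP kinase signals, stood at 252, 239 and 231 CPM in bone, against 464, 575 and 500.4 CPM in muscle (log2 fold change -1.09 ± 0.15, adjusted p = 0.000259) and kept its call in all 16 alternatives. The orphan nuclear receptors Nr4a1 (-0.81 ± 0.21, adjusted p = 0.0298) and Nr4a3 (-0.89 ± 0.18, adjusted p = 0.006) were lower too. Of 18 genes of T cell receptor signalling only the costimulator Cd28 passed (-0.48 ± 0.13, adjusted p = 0.0327), with a list median of -0.19. Over all genes 4.86% passed. Nr4a1 lost its call without the naming style term, bone 1, bone b, bone c, muscle 2 or muscle 3 (adjusted p up to 0.279), Nr4a3 without the naming style term (adjusted p = 0.266) and Cd28 without the naming style term, bone b, bone c, muscle 1, muscle 2 or muscle 3 or with no filter on low counts (adjusted p up to 0.157).

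The BCL2 family, which sets the balance of survival and death at mitochondria, did not move as a block. Of 17 genes tested, Bcl2 was higher and 4 were lower (background 2.57% of genes higher and 2.29% lower), and the median log2 fold change was -0.22. Bcl2l1, which encodes the survival protein BCL-XL, stood at 74.2, 77.9 and 64.1 CPM in bone, against 120.2, 112 and 108 CPM in muscle (log2 fold change -0.65 ± 0.15, adjusted p = 0.0148). The survival genes Bcl2a1b (-1.15 ± 0.23, adjusted p = 0.00456) and Bcl2a1d (-1.43 ± 0.23, adjusted p = 0.00103) were lower. Thus Bcl2 and 3 other survival genes differed in opposite directions. Bcl2a1b and Bcl2a1d are near-identical copies whose reads can be split between them, so that each value is uncertain. Mcl1, another survival gene, stood at 439, 385 and 411 CPM in bone, against 286, 330.4 and 314 CPM in muscle (log2 fold change 0.41 ± 0.12, adjusted p = 0.057). It passed with DESeq2, with limma-voom, with upper-quartile scaling and in the fit to 9 libraries. In spleen Bcl2 stood at 276, 209 and 263 CPM and Bcl2l1 at 33.6, 32.4 and 48.5 CPM, so that bone lay between muscle and spleen for both. Without bone c the count of lower genes was 2, and Bcl2l1 lost its call (adjusted p = 0.092).

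Cell cycle genes were partly lower in bone. Of 25 tested, 4 were lower and 1 higher (background 2.29% of genes lower and 2.57% higher), 22 fold changes were below 0 and the median was -0.64. The 4 lower genes all encode subunits of the MCM helicase, the ring that opens DNA at replication origins. Mcm5 stood at 51.7, 40.97 and 44.7 CPM in bone, against 94.1, 80.2 and 83.2 CPM in muscle (log2 fold change -0.91 ± 0.14, adjusted p = 0.000811). Mcm3 stood at 92.8, 74.9 and 58.97 CPM in bone, against 126, 128 and 116 CPM in muscle (log2 fold change -0.70 ± 0.15, adjusted p = 0.00969). Mcm2 (-0.64 ± 0.15, adjusted p = 0.0135) and Mcm6 (-0.58 ± 0.15, adjusted p = 0.0232) had smaller differences. For each of the 4, bone and muscle libraries did not overlap, which held for 23.7% of all genes. Without bone c 1 of the 4 calls was left, that of Mcm5, which held in all 16 alternatives. Mcm2 lost its call without bone c (adjusted p = 0.0914), Mcm3 without bone c (adjusted p = 0.0796) and Mcm6 without the naming style term, bone b, bone c, muscle 1 or muscle 2 (adjusted p up to 0.126).

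The promoters of these 4 genes are shown because the genes moved together and replication genes are known targets of E2F factors. All 4 matched a RefSeq promoter window (GRCm38.p6, 250 bases before to 50 after the start). The E2F motifs TTTCCCGC, TTTCGCGC, TTTGCCGC and TTTGGCGC, searched on both strands, were in 3 of the 4 windows (Mcm3, Mcm5 and Mcm6). They were in 2.26% of the 32851 windows searched. The 4 genes were picked from these data and belong to a known class of E2F targets. These shares are thus no test of the difference between bone and muscle. A match is a stretch of letters, not a site shown to be bound, and motifs on opposite strands can overlap. The upstream 250 bases are given for Mcm5 (chr8:75109259-75109508, plus strand) and Mcm6 (chr1:128359706-128359955, minus strand), and for Mcm3 the 27 bases just after its start (chr1:20820267-20820293, minus strand) that hold both matches, with matches in capitals.
Mcm5: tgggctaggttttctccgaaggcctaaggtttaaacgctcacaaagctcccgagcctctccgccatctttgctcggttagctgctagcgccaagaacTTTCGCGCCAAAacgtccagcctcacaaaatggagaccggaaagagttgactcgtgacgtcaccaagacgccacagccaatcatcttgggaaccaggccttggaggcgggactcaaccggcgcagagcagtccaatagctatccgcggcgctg
Mcm6: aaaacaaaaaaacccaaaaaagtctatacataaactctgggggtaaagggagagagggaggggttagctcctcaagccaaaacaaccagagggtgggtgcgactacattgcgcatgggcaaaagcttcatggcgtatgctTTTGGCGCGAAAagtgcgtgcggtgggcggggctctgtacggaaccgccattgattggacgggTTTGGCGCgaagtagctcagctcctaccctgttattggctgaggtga
Mcm3: GCGGGAAAacttgggaagtTTTGGCGC
In Mcm5 and Mcm6 a pair of matches on opposite strands shares letters, which joins them into 1 run of 12 capitals, and Mcm6 holds a further match nearer its start. A narrow form of the NF-kB motif, with 10 letters of which only the middle ones may vary, was searched in the same way. This was done for the 7 lower genes of the NF-kB list. The narrow form was in 0 of the 8 windows found for 6 of them, against 1.47% of the windows searched. This says only that these letters are not in those windows. The windows of Rel and Nfkbid hold runs that differ from the narrow form in 1 letter, which a looser form could match. The count of 0 thus depends on the form chosen. Looser forms were not searched over all windows, so that their share is not known and sites of NF-kB may be present there.

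Further genes of DNA replication and mitosis were lower, Lig1 and Dut among them chosen after their values were seen. Cdc6, which loads the helicase, stood at 10.8, 10.3 and 8.51 CPM in bone, against 37.9, 26.7 and 21.1 CPM in muscle (log2 fold change -1.53 ± 0.31, adjusted p = 0.00511) and kept its call in all 16 alternatives. Lig1, the ligase that joins new DNA fragments (-0.94 ± 0.19, adjusted p = 0.00568), and Dut, which keeps uracil out of DNA (-1.05 ± 0.27, adjusted p = 0.0316), were lower. The mitotic genes Spc25, Cdca5 and Cdca2 and the regulator Mybl2 had log2 fold changes of -1.55 ± 0.39, -1.51 ± 0.40, -1.50 ± 0.38 and -1.79 ± 0.47, with adjusted p values of 0.0238, 0.0305, 0.0232 and 0.0313. Muscle 1 was the highest of the 6 libraries for each of these 4 genes. The proliferation marker Mki67 stood at 563, 581 and 630.1 CPM in bone, against 1061, 731 and 907 CPM in muscle and did not pass (log2 fold change -0.61 ± 0.65, adjusted p = 0.673), nor did Top2a (log2 fold change -0.49 ± 0.43, adjusted p = 0.584). The groups did not overlap for Mki67, and it passed in the fit to 6 libraries and with no filter on low counts. Ccnd3, a cyclin of lymphocyte growth, was the 1 cell cycle gene that was higher (0.69 ± 0.16, adjusted p = 0.0151). Lig1 lost its call without the naming style term (adjusted p = 0.0958), Dut without bone 1, bone c or muscle 1 or in the fit to 9 libraries (adjusted p up to 0.148) and Spc25 without bone 1, bone b, bone c or muscle 1 (adjusted p up to 0.226). Cdca5 lost its call without bone b, bone c or muscle 1 or in the fit to 9 libraries (adjusted p up to 0.146), Cdca2 without the naming style term, bone 1, bone b, bone c, muscle 1 or muscle 3 (adjusted p up to 0.141) and Mybl2 without bone b, bone c, muscle 1 or muscle 3 (adjusted p up to 0.155). Ccnd3 lost its call without bone c or muscle 1 (adjusted p up to 0.0827).

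**Figure D4:**
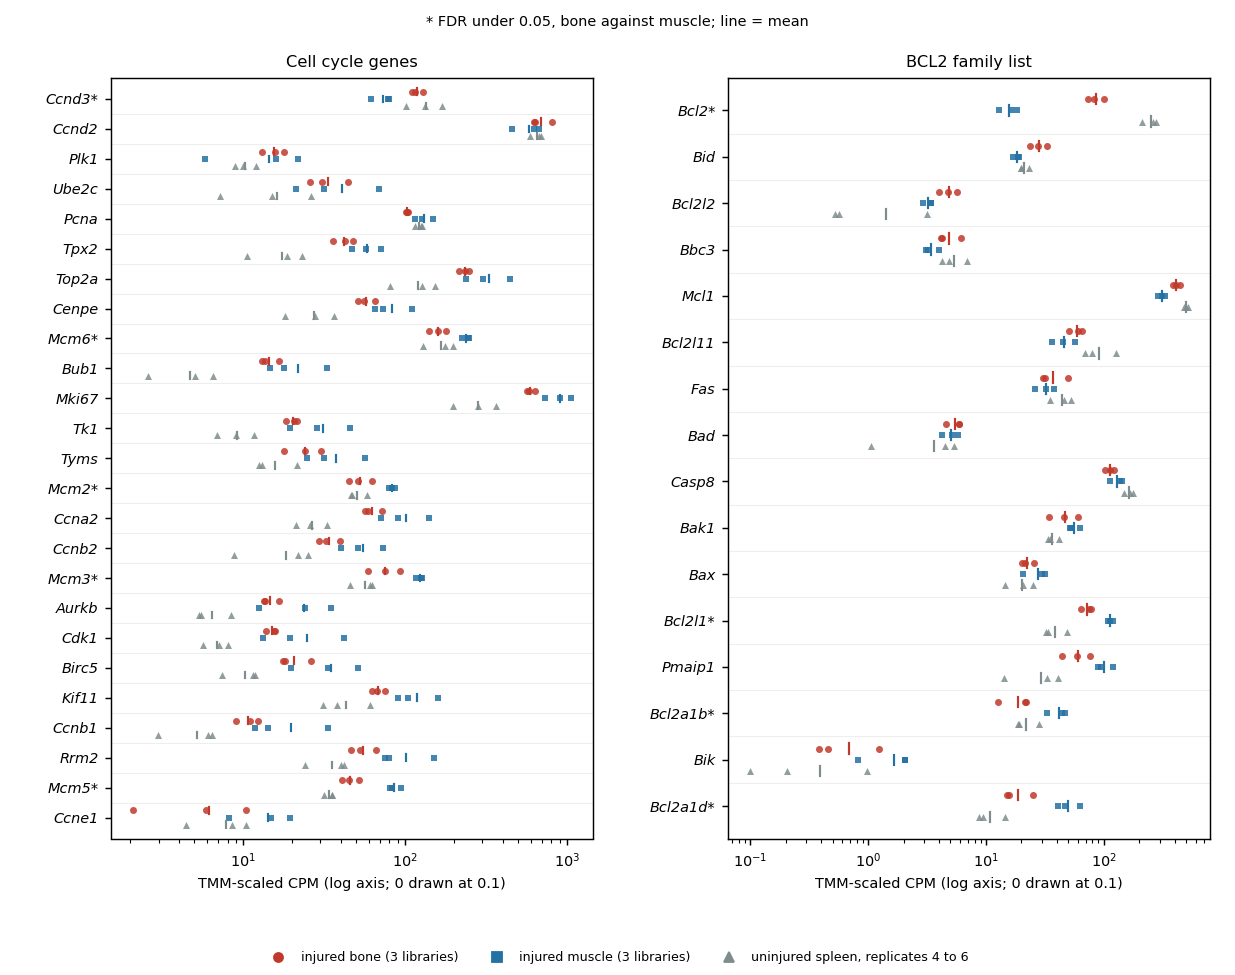
Level of tested genes of the cell cycle list (left) and the BCL2 family list (right) in every library, with 1 member of the BCL2 list not drawn, in TMM-scaled CPM on a log axis; circles are bone, squares muscle and triangles spleen replicates 4 to 6, short lines are group means and asterisks mark FDR under 0.05 for bone against muscle. Bcl2 has all 3 bone points right of all muscle points, and the 4 MCM genes have all bone points left of all muscle points.

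Several genes of the type 1 and effector programmes were lower in bone. Over all genes 2.29% were lower, the share against which the lists below are read. Of 23 lineage transcription factors 6 were lower and 0 higher, with a median of -0.34. They were Bhlhe40, Rora and Nfil3, given above, and Tbx21, Id2 and Runx2. Tbx21, which encodes the type 1 factor T-bet, stood at 14.3, 9.81 and 11.8 CPM in bone, against 48.1, 35.8 and 22.5 CPM in muscle (log2 fold change -1.57 ± 0.34, adjusted p = 0.00955). Id2, an inhibitor of E proteins found in effector cells (-0.70 ± 0.16, adjusted p = 0.015), thus went the opposite way to its relative Id3. Runx2 had the smallest of these differences (-0.60 ± 0.17, adjusted p = 0.0376). Cxcl10, a ligand that draws cells with the type 1 receptor Cxcr3, stood at 29.3, 21.5 and 33.2 CPM in bone, against 103, 70.4 and 91.3 CPM in muscle (log2 fold change -1.66 ± 0.25, adjusted p = 0.000466). It and Ccl5 (-0.77 ± 0.19, adjusted p = 0.0222) were the 2 of 11 chemokine ligands that were lower, with 0 higher and a list median of -1.18. Cxcl10 kept its call in all 16 alternatives. Nkg7, a granule protein of cytotoxic cells, stood at 22.9, 13.8 and 18.9 CPM in bone, against 67.6, 76.5 and 46.3 CPM in muscle (log2 fold change -1.78 ± 0.24, adjusted p = 0.000212) and kept its call in all 16. With Srgn (-0.73 ± 0.18, adjusted p = 0.0232) and Serpinb6b (-0.86 ± 0.21, adjusted p = 0.0191) it made up the 3 of 13 granule genes that were lower, with 0 higher and a median of -0.46. Cd274, which encodes PD-L1, stood at 108, 103 and 111 CPM in bone, against 197, 175 and 186 CPM in muscle (log2 fold change -0.80 ± 0.14, adjusted p = 0.00146), and with Ctla4 made 2 of 10 coinhibitory genes lower, with 0 higher and a median of -0.39. Tbx21 lost its call without bone b, bone c or muscle 1 (adjusted p up to 0.0628), Id2 without the naming style term, bone b, bone c or muscle 2 (adjusted p up to 0.109) and Runx2 without any 1 of the 6 libraries or the naming style term or with upper-quartile scaling (adjusted p up to 0.135). Ccl5 lost its call without bone 1, bone b or muscle 1 (adjusted p up to 0.12), Srgn without bone b, bone c or muscle 2 (adjusted p up to 0.113) and Serpinb6b without bone 1, bone b, muscle 1 or muscle 2 (adjusted p up to 0.104).

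Among 19 chemokine receptors, Ccr8 was lower and Cxcr5, which guides cells to B cell follicles, was higher at 14.02, 23.1 and 30.6 CPM in bone, against 5.56, 3.19 and 9.12 CPM in muscle (log2 fold change 1.92 ± 0.47, adjusted p = 0.0376). The list median was -0.02. Over all genes 2.57% were higher and 2.29% lower. Of 20 integrin and adhesion genes 3 were lower, Itgav, a subunit of TGF-beta activating integrins (-0.74 ± 0.18, adjusted p = 0.0197), the memory marker Cd44 (-0.69 ± 0.15, adjusted p = 0.00774) and Icam1, and the median was -0.04. Of the 15 Treg identity genes Ctla4 and Lrrc32, the receptor that holds latent TGF-beta on the Treg surface (-0.56 ± 0.14, adjusted p = 0.0242), were lower, with a median of -0.11. Cxcr5 lost its call without bone b, bone c, muscle 1 or muscle 2 or with limma-voom (adjusted p up to 0.133), Itgav without bone b, bone c or muscle 1 (adjusted p up to 0.0946) and Cd44 without bone c or muscle 2 (adjusted p up to 0.0738). Lrrc32 lost its call without bone 1, bone b, muscle 1 or muscle 2 (adjusted p up to 0.112).

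Genes of secreted repair factors and of bone remodelling were read against the 4.86% of all genes that passed. Of 16 repair and growth factor genes tested, Penk alone was lower and 0 were higher, with a median of -0.07. Of 15 genes known to act on bone cells, Ctla4 alone was lower and 0 were higher, with a median of -0.27. Tnfsf11, which encodes the osteoclast factor RANKL, stood at 28.04, 26.7 and 18.2 CPM in bone, against 22.7, 30.1 and 35.6 CPM in muscle, and the groups overlapped (log2 fold change -0.27 ± 0.25, adjusted p = 0.599). Sema4d, a semaphorin that restrains osteoblasts, stood at 546, 517 and 509 CPM in bone, against 485, 694 and 661 CPM in muscle (log2 fold change -0.23 ± 0.14, adjusted p = 0.382). Csf1, the growth factor of macrophages and osteoclasts, stood at 39.98, 35.05 and 35.1 CPM in bone, against 24.6, 31.7 and 33.6 CPM in muscle (log2 fold change 0.29 ± 0.24, adjusted p = 0.532). Tgfb1 stood at 234, 226 and 210.3 CPM in bone, against 229.8, 299.6 and 249 CPM in muscle (log2 fold change -0.22 ± 0.12, adjusted p = 0.345). Csf1 was the 1 of these 4 genes whose groups did not overlap, with bone above muscle, against 23.7% of all genes without overlap. Of 14 cytokine genes tested, Il5, which supports eosinophils, was lower at 0, 0.159 and 0 CPM in bone, against 3.07, 1.97 and 3.32 CPM in muscle (log2 fold change -5.34 ± 1.39, adjusted p = 0.0334), 0 were higher and the median was -0.48. Il5 lost its call without the naming style term, bone 1, bone c, muscle 1, muscle 2 or muscle 3 or in the fit to 9 libraries (adjusted p up to 0.112).

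Metabolic genes were set against the same share of all genes. Of 22 genes of cholesterol and fatty acid metabolism, Scd1, which makes fatty acids unsaturated, was higher at 10.97, 8.46 and 12.7 CPM in bone, against 0.166, 1.14 and 0.249 CPM in muscle (log2 fold change 4.31 ± 0.68, adjusted p = 0.0011), and Dgat1, which makes stored fat, was lower at 253, 220.4 and 149.5 CPM in bone, against 476, 419.7 and 399.5 CPM in muscle (log2 fold change -1.06 ± 0.18, adjusted p = 0.00126). Both kept their call in all 16 alternatives, and the list median was -0.06. Dgat1 stood at 14.98, 19.9 and 22.9 CPM in spleen and Scd1 at 16.3, 18.98 and 11.5 CPM. Of 22 glycolysis and hypoxia genes Pdk1, a kinase that holds pyruvate back from mitochondria, was higher (0.75 ± 0.18, adjusted p = 0.0181), with a median of -0.22. Of 20 respiratory chain genes Cox5a (-0.60 ± 0.16, adjusted p = 0.0321) and Cox6c (-0.63 ± 0.15, adjusted p = 0.018) were lower, with a median of -0.37. Odc1, the first enzyme of polyamine synthesis, was chosen after its values were seen and stood at 775, 664 and 522 CPM in bone, against 1424, 1588 and 1242 CPM in muscle (log2 fold change -1.12 ± 0.16, adjusted p = 0.000227). Pdk1 lost its call without bone b, bone c or muscle 1 (adjusted p up to 0.113), Cox5a without the naming style term, bone 1, bone b, bone c or muscle 1 or in the fit to 6 libraries or in the fit to 9 libraries (adjusted p up to 0.155) and Cox6c without bone b, bone c or muscle 1 (adjusted p up to 0.0989).

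Of 20 interferon response genes 2 were lower, Isg20 (-0.93 ± 0.20, adjusted p = 0.01) and Igtp (-0.57 ± 0.15, adjusted p = 0.0298), 0 were higher and the median was -0.31. Over all genes 2.29% were lower and 2.57% higher. Of 10 genes of MHC class II presentation H2-Ob was higher, at 18.5, 21.1 and 27.6 CPM in bone, against 8.14, 8.05 and 10.4 CPM in muscle (log2 fold change 1.33 ± 0.22, adjusted p = 0.00103), with a median of -0.13. H2-Ob, a B cell modulator of peptide loading, thus went with the B cell markers above. Of 19 stress and chaperone genes 0 passed, and their median was -0.08. At unadjusted p under 0.05, 2 of those 19 passed. Isg20 lost its call without bone b (adjusted p = 0.0728) and Igtp without the naming style term, bone 1, bone b, bone c or muscle 1 (adjusted p up to 0.139).

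Markers of further cell types were checked by their summed level. Skeletal muscle markers stood at 6.76, 5.32 and 7.89 CPM in bone, against 7.14, 105 and 9.62 CPM in muscle, so that only muscle 2 stood apart. In that library the fast myosin gene Myh4 stood at 44.0 CPM and Des, the desmin gene, at 17.5 CPM, and both were at 0 in all bone libraries. Without muscle 2 there were 13 naive genes higher and 4 effector genes lower. Bone cell markers of osteoblasts stood at 15.2, 42.8 and 42.6 CPM in bone, against 23.2, 1.97 and 6.96 CPM in muscle, and the defining genes Bglap, Ibsp, Sp7 and Dmp1 were at 0 in all 6. Of 4 osteoblast markers tested 0 passed.

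Fibroblast markers stood at 11.6 to 42.1 CPM in bone and 10.4 to 52.2 CPM in muscle, and dendritic cell markers at 75.6 to 134 CPM in bone and 74.9 to 109 CPM in muscle. Of the 10 dendritic cell markers Ly6d was higher, as given above. Siglech, chosen after its values were seen as a marker of plasmacytoid dendritic cells, stood at 18.3, 44.6 and 27.5 CPM in bone, against 0, 17.2 and 5.06 CPM in muscle, so that every bone library lay above every muscle library, but it did not pass (log2 fold change 2.02 ± 1.38, adjusted p = 0.46). With no filter on low counts Siglech passed. Bst2, of the same list, stood at 21.7, 33.3 and 40.3 CPM in bone, against 43.5, 28.9 and 34.2 CPM in muscle. Its groups overlapped (log2 fold change -0.17 ± 0.22, adjusted p = 0.74). Fold changes were above 0 for 5 of the 10 dendritic cell markers, with a median of 0.06. Csf1r was the 1 of 9 macrophage markers that was higher (2.45 ± 0.67, adjusted p = 0.0362), and Slc4a1 the 1 of 6 erythroid markers (4.74 ± 1.28, adjusted p = 0.0365). Over all genes 2.57% were higher. No marker passed among those of neutrophils (5 tested), CD8 T and NK cells (9), mast cells (1), osteoclasts (6), skeletal muscle (4), fibroblasts (5) or endothelium (5), and no satellite cell marker had counts enough to be tested. At unadjusted p under 0.05, 2 neutrophil markers and 1 marker each of osteoblasts, osteoclasts, skeletal muscle and endothelium passed. The part of these cells in the results was not tested. Csf1r lost its call without the naming style term, bone 1, bone b, bone c, muscle 1 or muscle 2 or with limma-voom or in the fit to 6 libraries or in the fit to 9 libraries (adjusted p up to 0.164) and Slc4a1 without the naming style term, bone b, bone c, muscle 1 or muscle 3 or with limma-voom (adjusted p up to 0.19).

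**Figure D5:**
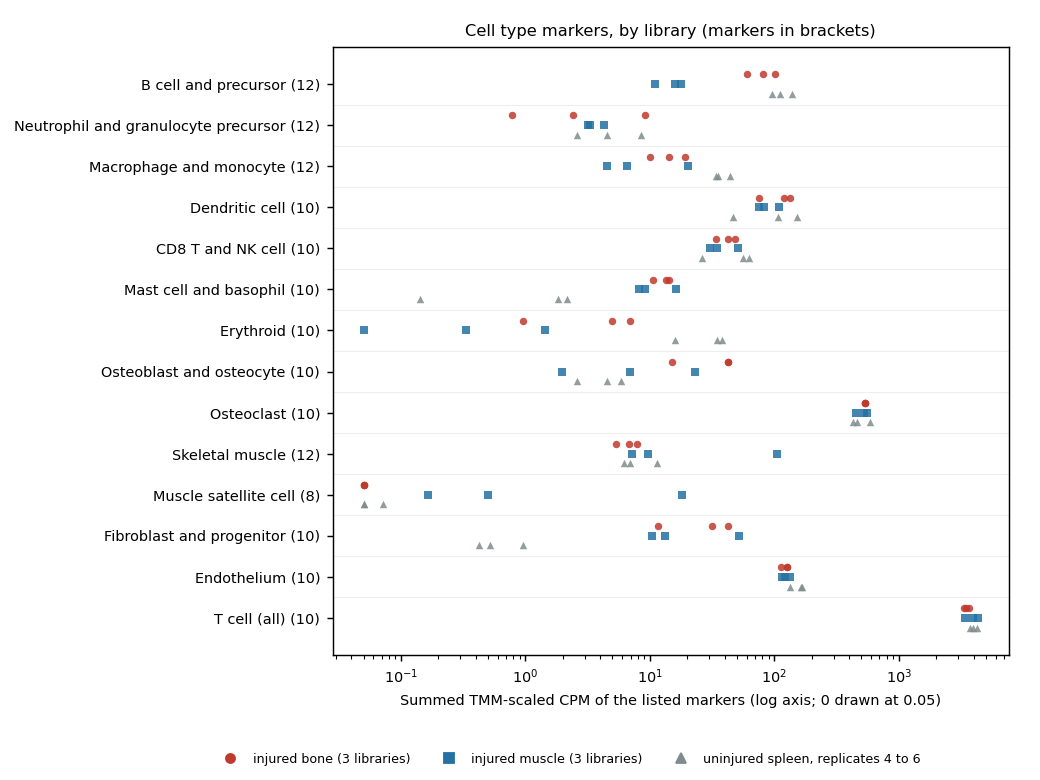
Summed level of the markers of each cell type in every library, in TMM-scaled CPM on a log axis; circles are bone, squares muscle and triangles spleen replicates 4 to 6. B cell markers lie between 60.1 and 101 CPM in bone and between 10.96 and 17.8 CPM in muscle, and skeletal muscle markers reach 105 CPM in muscle 2.

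Other genes with the highest fold changes were Nr3c2, the mineralocorticoid receptor, at 11.8, 8.74 and 5.49 CPM in bone, against 0.415, 0.380 and 1.58 CPM in muscle (log2 fold change 3.45 ± 0.67, adjusted p = 0.00409), and Nod1, a sensor of bacterial cell walls, at 20.6, 22.5 and 49.4 CPM in bone, against 7.31, 3.42 and 6.72 CPM in muscle (log2 fold change 2.40 ± 0.32, adjusted p = 0.000294). Sorcs2 (2.65 ± 0.52), Dtx4 (2.38 ± 0.49), Ddx43 (2.33 ± 0.52) and Snn (2.35 ± 0.62) were higher too, with adjusted p values of 0.00681, 0.00698, 0.012 and 0.031. The lowest was Galnt3, an enzyme that starts O-linked sugar chains, at 1.29, 1.47 and 0.0774 CPM in bone, against 16.4, 19.1 and 8.29 CPM in muscle (log2 fold change -3.87 ± 0.83, adjusted p = 0.0103). It was also low in spleen, at 0.749, 0.325 and 0 CPM, so that muscle alone held it above 2 CPM among these 9 libraries.

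Further genes with the lowest fold changes were Aph1c, a subunit of gamma-secretase (-2.53 ± 0.54, adjusted p = 0.0086), Bcat1, which acts on branched-chain amino acids (-2.46 ± 0.62, adjusted p = 0.0258), and Shmt1, an enzyme of one-carbon metabolism (-2.36 ± 0.54, adjusted p = 0.0157). Tbc1d7 (-1.90 ± 0.53), Mtfr2 (-1.73 ± 0.48) and Znhit1 (-1.69 ± 0.33) completed the lowest genes, with adjusted p values of 0.0412, 0.0406 and 0.00437. Nr3c2, Nod1, Sorcs2, Galnt3 and Znhit1 kept their call in all 16 alternatives. Dtx4 lost its call without bone c (adjusted p = 0.0506), Ddx43 without bone b or muscle 2 (adjusted p up to 0.0634) and Snn without bone b, bone c, muscle 1 or muscle 2 or with limma-voom or in the fit to 6 libraries (adjusted p up to 0.179). Aph1c lost its call without muscle 1 (adjusted p = 0.0555), Bcat1 without bone 1, bone c or muscle 1 or with limma-voom or in the fit to 6 libraries or in the fit to 9 libraries (adjusted p up to 0.221) and Shmt1 without bone b or muscle 1 or in the fit to 6 libraries or in the fit to 9 libraries (adjusted p up to 0.0765). Tbc1d7 lost its call without the naming style term, bone b, bone c, muscle 1, muscle 2 or muscle 3 or in the fit to 6 libraries or in the fit to 9 libraries (adjusted p up to 0.159) and Mtfr2 without the naming style term, bone 1, bone b, bone c, muscle 1 or muscle 2 or in the fit to 6 libraries or in the fit to 9 libraries (adjusted p up to 0.217).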

How the data were processed

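Raw gene counts of the bone, muscle, skin and spleen table were deposited by the authors. Per the submitters' processing notes, the tools were STAR, featureCounts and limma and the build GRCm38. The sources used here give neither the annotation release nor the strand setting, so that reads of overlapping or antisense genes may be shared. Per the labels, RNA came from a Qiagen micro kit and libraries were made from 1 ng of RNA with an Ovation Solo kit.

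Starting from the counts, edgeR 4.0.16 (R 4.3.3) was run on all 15 libraries of the table, with group and naming style as terms, filterByExpr, TMM and a robust quasi-likelihood fit. This left 15617 of 46078 genes for the test of bone minus muscle, with Benjamini-Hochberg adjustment. CPM values are TMM-scaled. Total counts of 11582403 to 22635760 limit the precision of low genes, and intervals and floors cover counting error only. The procedure was tested on simulated data. Alternatives used DESeq2 1.42.0, limma-voom (limma 3.58.1), other scalings, filters and sets of libraries.

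Genes were named by rule: the 15 highest and 15 lowest fold changes among genes that passed, without overlap and with a mean of at least 4 CPM, a fixed list of 20 genes, and up to 4 members that passed in each direction of 24 role lists and 14 marker lists. The comparison, the lists and the rule were chosen with earlier results of these data known. Other genes were chosen after their values were seen. Promoters are from RefSeq. A few members of the lists are counted but not reported here by name.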

Additional observations from a re-analysis of the deposited data

How the results depend on the processing

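With no filter on low counts 1191 genes passed (605 higher and 586 lower in bone), with DESeq2 1270 (625 higher and 645 lower), and without the naming style term 432 (261 higher and 171 lower). With limma-voom 434 genes were higher and 568 lower, in the fit to 6 libraries 270 higher and 344 lower, and with upper-quartile scaling 463 higher and 285 lower, against 402 and 357 in the result as reported. Leaving out 1 library gave 256 to 680 genes, 171 to 349 of them higher and 85 to 331 lower, with the lowest counts without bone c. Of 151 named genes followed, 109 had passed, of which 47 passed in every alternative and 62 did not. The other 42 had not passed, and 20 of them passed in at least 1. Further genes that had not passed, such as Vpreb3 and Cd93, were not followed. The cause of these changes was not tested. Among the genes followed, a sign changed only in 6, none of which had passed. Ikzf2 was at -0.002 with RLE scaling and -0.002 with DESeq2. With 1 library left out, log2 fold changes ran from -0.369 to 0.05 for Bst2, from -0.074 to 0.872 for Ccr7, from -0.05 to 0.166 for Foxp3, from -0.016 to 0.043 for Ikzf2, from -0.274 to 0.125 for Il2ra and from -0.038 to 0.236 for Itgb3. No paired analysis was possible because 2 of the 3 bone columns could not be tied to a replicate number, so that bone and muscle share only 1 number.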

Other observations

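A few genes outside the lists differed between the tissues and were chosen after their values were seen. Socs1, an inhibitor of cytokine receptor signalling, was higher, at 39.9, 44.98 and 53.5 CPM in bone, against 17.02, 17.8 and 22.6 CPM in muscle (log2 fold change 1.27 ± 0.22, adjusted p = 0.00168, edgeR), and its spleen level of 29.1, 27.5 and 30.5 CPM lay between the groups. Txnip, a gene induced by glucose and by quiescence, was higher as well, at 623, 575 and 639.9 CPM in bone, against 215, 359 and 282 CPM in muscle (log2 fold change 1.10 ± 0.25, adjusted p = 0.0182). Hopx, a cofactor of induced Tregs, was lower, at 117, 107 and 81.1 CPM in bone, against 190.2, 249 and 209.8 CPM in muscle (log2 fold change -1.09 ± 0.16, adjusted p = 0.000339), as was Rgs2, which dampens G protein signals, at 511, 439 and 472 CPM in bone, against 899, 1048 and 1029 CPM in muscle (log2 fold change -1.07 ± 0.22, adjusted p = 0.0074). Hopx and Socs1 kept their call in all 16 alternatives. Txnip lost its call without bone c, muscle 1 or muscle 3 (adjusted p up to 0.0826) and Rgs2 without the naming style term (adjusted p = 0.254).

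Genes of the circadian clock output gave mixed values. Dbp, a clock-controlled transcription factor, was higher, at 12.02, 13.6 and 17.6 CPM in bone, against 3.15, 4.10 and 4.73 CPM in muscle (log2 fold change 1.84 ± 0.31, adjusted p = 0.00122) and kept its call in all 16 alternatives. Its relatives did not pass: Hlf stood at 28.1, 31.9 and 12.9 CPM in bone, against 50.7, 64.5 and 53.97 CPM in muscle (log2 fold change -1.21 ± 0.42, adjusted p = 0.124) and Tef at 21.1, 30.1 and 18.1 CPM in bone, against 21.3, 13.9 and 19.6 CPM in muscle (log2 fold change 0.34 ± 0.25, adjusted p = 0.485). The clock genes Per1 (log2 fold change -0.56 ± 0.22, adjusted p = 0.159) and Nr1d1 (log2 fold change -0.77 ± 0.35, adjusted p = 0.218) did not pass either, while Nfil3 and Bhlhe40, which also act on clock genes, were lower. Hlf and Per1 passed with no filter on low counts and in the fit to 6 libraries. Hlf also passed with DESeq2 and with limma-voom, and Per1 in the fit to 9 libraries. The time of day of tissue collection is not given in the sources used here.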
